A study of Mus musculus with 6 samples.

Results

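Regulators of epithelial identity were examined in bulk RNA-seq of the mouse incisor after loss of *Arid1b*. They are 9 genes chosen by name, with earlier results of these data known, of 19270 in the table of group means. All 9 were found. *Trp63*, *Grhl1*, *Grhl2*, *Grhl3*, *Ovol1*, *Klf5* and *Ehf* encode transcription factors, and *Esrp1* and *Esrp2* encode RNA-binding proteins that control splicing. Such regulators set which junction, adhesion and keratin genes an epithelial cell uses, and which exons it includes, whereas the structural genes encode the parts themselves. In the continuously growing incisor, epithelium in the cervical loop renews the ameloblasts that secrete enamel, and the neighbouring mesenchyme forms the pulp and the odontoblasts. TP63 is known for its role in the dental epithelium.

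There were 3 control and 3 *Arid1b* mutant samples, from mice given tamoxifen (TMX) at 1 month of age and collected 4 days after induction. The methods do not state the number of mice behind each sample. The mutants were *Gli1-CreER;Arid1bfl/fl*, in which the *Gli1* promoter drives a tamoxifen-dependent Cre that inactivates the floxed *Arid1b* alleles. Per the study, this Cre line recombines in both tissue layers of the tooth, so the mutation is not limited to mesenchyme. The control genotype is labelled wild type, whereas the methods describe *Arid1bfl/fl* mice with the same injections. Neither description includes *Gli1-CreER*, so its presence and the loss of *Arid1b* cannot be told apart. The tissue is labelled incisor, and the methods describe dissected mesenchyme of its proximal end. Each level given here is the authors' mean for a group in normalized signal, without a spread between mice, so no difference has a replicate check and no test was made. Ratios are of the mutant over the control mean, and a log2 ratio of 0 stands for equal means.

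The depth behind these means was estimated from the lowest and the mean value of each library, and this estimate is an inference. It came to between 39087724 and 39868312 reads for the control libraries and between 37123643 and 49594469 for the mutant libraries. The targeted gene *Arid1b*, which encodes a subunit of the BAF chromatin remodeling complex (chr17:4994332-5347656 of GRCm38, plus strand), had a mean of 97.6 in the control and 38.0 in the mutants, a ratio of 0.390. The targeted gene was thus lower in the group labelled as mutant. The sexes of the mice were not given in the labels. *Xist*, transcribed from the inactive X chromosome, had a mean of 3368 in the control and 814 in the mutants, 4.14-fold lower. The Y-linked *Ddx3y* was at or under the level of 3 reads per library in the control and at 65.3 in the mutants, at least 631-fold higher, and 4 of 4 Y-linked transcripts were at or under that level in the control. The groups therefore differed in sex composition, and sex and genotype cannot be told apart in any comparison below.

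Epithelial RNA was present in both groups. *Krt5*, a keratin of basal epithelial cells, had a mean of 154 in the control and 359 in the mutants, and *Cdh1*, the adherens junction cadherin of epithelium, had 100.2 and 180.8. In bulk samples, fewer or more cells of a type and less or more RNA per cell cannot be told apart, and this holds for every epithelial gene described here.

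The regulators had higher mutant means in 8 of 9 cases. Of the 9, 8 passed the minimum for a measured gene, an average of the 2 group means of at least 1, and *Ovol1* did not. *Grhl3* and *Ehf*, with control means of 0.690 and 0.911, passed only through their mutant means, so they had to be higher in the mutants, and the counts and the median below, which include both, are a description and not support for a difference. Among the measured regulators, 6 of 8 were over 1.5-fold higher in the mutants, against 4.14% of the 14744 measured genes. Because the regulators were chosen with earlier results of these data known, a distance from such shares is likewise not support. None of the 8 was over 1.5-fold lower, against 1.91% of the measured genes. The mutant mean was above the control mean for 7 of 8, against 51.4% of the measured genes, and 3 of 8, *Grhl3*, *Ehf* and *Esrp2*, were over 2-fold higher, against 1.46%. Large ratios were more frequent among low genes, so the count was also read by level. For averages of 1 to 10, 4 of 5 regulators were over 1.5-fold higher, *Grhl3* and *Ehf* among them, against 8.75% of the measured genes at that level. For averages of 10 or more, the count was 2 of 3, against 2.15%. The median log2 ratio of the measured regulators was 0.89, with quartiles of 0.77 and 1.10, beside 0.00 for all measured genes, with quartiles of -0.10 and 0.11. The log2 ratios ran from -0.18 for *Grhl1* to 1.53 for *Grhl3*.

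**Figure D1:**
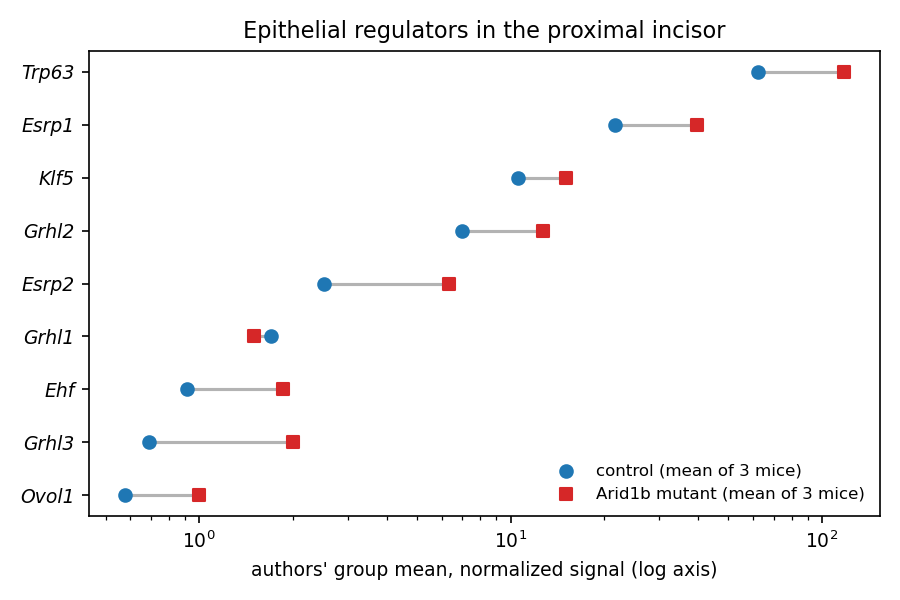
Authors' group means of the 9 epithelial regulators in normalized signal on a log axis. Circles are the control, squares the *Arid1b* mutants, and a line joins the means of each gene. Each group has 3 samples, named mice in the legend, and no spread was available. The square lies to the right of the circle for 8 of 9 genes, and *Grhl1* is the exception.

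*Trp63* encodes the p53-family factor that establishes and maintains stratified and basal epithelium (chr16:25683763-25892102, plus strand). Its mean was 62.2 in the control and 118 in the mutants, which corresponds to about 2403 and 5095 reads per library. The ratio was 1.89, and 1.77% of the measured genes had a higher ratio. *Trp63* was the most abundant of the regulators in both groups, so its ratio does not rest on few reads. The table gives 1 value for the gene, and its TA and ΔN isoforms were not separated.

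Of the grainyhead-like factors, which activate junction and barrier genes, *Grhl2* and *Grhl3* had higher mutant means. *Grhl1* had a slightly lower one, without a spread to say whether it differed. *Grhl2*, known for its control of *Cdh1* and claudin genes (chr15:37233036-37363569, plus strand), had a mean of 6.99 in the control and 12.7 in the mutants, a ratio of 1.81. *Grhl3*, known for barrier formation in the epidermis (chr4:135541888-135573630, minus strand), had 0.690 and 2.00, a ratio of 2.90 and the highest of the regulators. *Grhl1*, known for the control of desmosomal cadherins (chr12:24572283-24617391, plus strand), had 1.69 and 1.495, a ratio of 0.883. *Grhl1* was the single regulator with a lower mutant mean, with a log2 ratio of -0.18, or -0.12 with equal group totals and -0.11 with a pseudocount of 1. *Grhl3* and *Grhl1* were both low. *Grhl3* corresponds to about 25.7 reads per control library and 85.6 per mutant library, and with a pseudocount of 1 its log2 ratio was 0.83 in place of 1.53. It was then under *Esrp2* at 1.06, *Trp63* at 0.91 and *Esrp1* at 0.84, so *Grhl3* was the highest only without a pseudocount. *Grhl1* corresponds to about 64.5 and 63.8 reads per library. For *Grhl2*, the antisense gene *Gm16136* shares 1.96% of the exonic length and had means of 0.475 and 1.17, and the strand used in counting was not given in the sources used here, so reads of the pair cannot be told apart.

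Promoter sequences of RefSeq on GRCm38.p6 matched 2 of 9 regulators, *Grhl3* and *Grhl1*, and both are shown for that reason. A relation between promoter sequence and ratio was not tested. The windows are the 250 bases before the annotated start, *Grhl3* at chr4:135573633-135573882 on the minus strand and *Grhl1* at chr12:24572037-24572286 on the plus strand, in lower case with any searched motif in capitals.
Grhl3: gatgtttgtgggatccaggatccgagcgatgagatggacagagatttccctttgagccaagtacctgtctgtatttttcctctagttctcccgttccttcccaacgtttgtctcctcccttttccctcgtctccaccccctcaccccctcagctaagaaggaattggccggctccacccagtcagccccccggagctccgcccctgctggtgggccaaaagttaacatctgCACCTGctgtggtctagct
Grhl1: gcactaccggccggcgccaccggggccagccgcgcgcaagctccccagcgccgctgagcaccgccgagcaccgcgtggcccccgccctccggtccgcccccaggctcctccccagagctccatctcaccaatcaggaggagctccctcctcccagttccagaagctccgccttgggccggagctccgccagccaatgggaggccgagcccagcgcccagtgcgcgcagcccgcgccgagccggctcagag
The searched motifs were CACCTG, an E-box bound by SNAI and ZEB repressors, and AACCGGTT, a form of the site bound by grainyhead factors, each on both strands and without overlap with the other. The *Grhl3* window holds 1 CACCTG, which begins 19 bases before the start, and the *Grhl1* window holds none. AACCGGTT is in neither window. Among 32851 promoter windows of this length, 17.2% hold CACCTG and 0.116% hold AACCGGTT. The share of G and C was 56.0% in the *Grhl3* window and 75.6% in the *Grhl1* window, beside a median of 52.4% over all windows. A further *Grhl1* start, with a window at chr12:24580469-24580718, holds neither motif and has 52.0% G and C. These matches describe the sequence alone.

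The epithelial splicing regulators were both higher in the mutant mean. *Esrp1* (chr4:11331933-11386783, minus strand) had a mean of 21.7 in the control and 39.6 in the mutants, a ratio of 1.82. Its paralogue *Esrp2* (chr8:106130319-106136974, minus strand) had 2.51 and 6.32, a ratio of 2.52. The lower of the paralogues thus had the larger ratio, although a difference between these ratios was not tested. With a pseudocount of 1, the log2 ratio of *Esrp2* was 1.06 in place of 1.33. Exons of *Nfatc3*, on the opposite strand, share 5.05% of the exonic length of *Esrp2*, and *Nfatc3* had means of 139 and 136. *1810019D21Rik* shares a further 2.74%, also on the opposite strand, and had means of 0.243 and 0.683. Exons of *Gm26663*, on the opposite strand, share 2.01% of the exonic length of *Esrp1*. Reads of such pairs cannot be told apart without the strand.

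ESRP proteins act on exons, and gene means do not show exon use. Of 7 genes with exons known to be regulated by ESRP proteins, 1 was over 1.5-fold higher and none was over 1.5-fold lower, with a median log2 ratio of 0.07. The gene past 1.5-fold was *Cd44*, a hyaluronan receptor, at 129 in the control and 209 in the mutants. The most abundant of them, *Ctnnd1*, encoding p120 catenin, had 294.0 and 304, and *Enah*, an actin regulator with the lowest ratio, had 272 and 239.8. Whether the spliced forms of these genes differed was not tested.

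*Klf5*, *Ehf* and *Ovol1* complete the list. *Klf5*, a Krüppel-like factor of proliferating epithelium (chr14:99298691-99315036, plus strand), had a mean of 10.6 in the control and 15.0 in the mutants. Its ratio of 1.42 lay under 1.5. *Ehf*, an ETS factor of epithelial cells (chr2:103263433-103303278, minus strand), had 0.911 and 1.86, a ratio of 2.04 on about 34.2 and 79.5 reads per library. With a pseudocount of 1, its log2 ratio was 0.58 in place of 1.03, which is under 1.5-fold. *Ovol1*, a zinc finger repressor that promotes epithelial differentiation (chr19:5549136-5560646, minus strand), had 0.579 and 0.999, a ratio of 1.73 on about 21.4 and 42.3 reads per library. Its average of 0.789 was under the minimum, and it is in the count of 8 of 9 higher mutant means but in none of the counts of measured genes. With a pseudocount of 1, its log2 ratio was 0.34 in place of 0.79, which is under 1.5-fold. Exons of *Gm31166* on the opposite strand share 19.8% of its exonic length, with means of 1.246 and 1.01, and *AC126029.1* shares 2.18%. *Ovol1* thus had the fewest reads and the largest shared exonic part of the 9.

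Levels were compared between genes as signal per kb of exonic length. In the control, the order was *Trp63* at 7.41 per kb, *Esrp1* at 3.44, *Klf5* at 2.04, *Grhl2* at 0.812, *Esrp2* at 0.578, *Grhl1* at 0.306, *Grhl3* at 0.247, *Ovol1* at 0.166 and *Ehf* at 0.163. The leading 5 kept this order in the mutants, at 14.0, 6.28, 2.89, 1.47 and 1.46 per kb. They were followed there by *Grhl3* at 0.716, *Ehf* at 0.333, *Ovol1* at 0.287 and *Grhl1* at 0.270. *Grhl1* thus stood in place 6 in the control and in place 9 in the mutants. No spread is available to say which neighbours in these orders differ. *Trp63* made up 48.9% of the summed level per kb of the 9 genes in the control and 50.6% in the mutants, and *Esrp1* 22.7% and 22.6%. The summed level was 15.2 per kb in the control and 27.7 in the mutants, carried in both groups mainly by *Trp63* and *Esrp1*.

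Other regulators of oral and dental epithelium had more varied ratios. Of 19 listed genes, 18 were in the table and 16 were measured, and 10 of 16 were over 1.5-fold higher and none over 1.5-fold lower. Their median log2 ratio was 0.76. *Sox21*, an SRY-box factor of dental epithelium, had a mean of 1.88 in the control and 12.4 in the mutants and the highest log2 ratio of the list, 2.72. This was above the log2 ratio of each of the 9 regulators. *Zfp750* and *Barx2* had log2 ratios of 1.70 and 1.70, *Isl1* 0.92, *Trp73* 0.91, *Rbm47* 0.77, *Sox2* 0.74 and *Tbx1* 0.64. *Tfap2c* at 0.29, *Klf4* at 0.27, *Tfcp2l1* at 0.25 and *Sp6* at 0.16 were under 1.5-fold. *Dlx3*, which dental mesenchyme also expresses, was the most abundant of the list at 470 in the control and 362 in the mutants, and its log2 ratio of -0.38 was the lowest, followed by *Tfap2a* at -0.28. With *Dlx3* included, the list summed to 1099.6 and 1196, a ratio of 1.09, and the 9 regulators to 107.8 and 197.5, a ratio of 1.83. *Ovol2* and *Elf3*, related to *Ovol1* and *Ehf*, were under the minimum, with log2 ratios of 0.96 and 0.97.

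The mesenchymal counterparts of these regulators had a median near equal means, with members on both sides of it. None of the 10 was over 1.5-fold higher or lower, and their median log2 ratio was -0.04, or 0.02 with equal group totals. *Zeb1* and *Zeb2*, repressors of *Cdh1* and of the ESRP genes in mesenchymal cells, had log2 ratios of -0.19 and -0.14. *Snai1* at -0.57 and *Twist2* at -0.40 were the lowest, and *Snai2* was at -0.10. *Twist1* was the highest at 0.22 and *Prrx1*, a homeobox factor of craniofacial mesenchyme, was at 0.07. The splicing factors used in mesenchyme, *Rbfox2*, *Qk* and *Mbnl1*, had 0.03, 0.05 and 0.03.

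The regulators were then set beside structural genes of epithelium. Of 51 listed structural genes, 49 were in the table and 44 were measured, and 32 of 44 were over 1.5-fold higher and none over 1.5-fold lower. Their median log2 ratio was 0.83, with quartiles of 0.55 and 1.37, and it differed by -0.06 from that of the regulators. Of the 44, 35 lay within the range of the regulators without a pseudocount, 8 above *Grhl3* and 1 below *Grhl1*. The middle of the structural genes thus had about the same ratio as that of the regulators, with a wider spread. For *Trp63*, *Grhl2*, *Esrp1* and *Ovol1*, 4 of the 9, the log2 ratio lay within 0.1 of the 0.85 of *Cdh1*.

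By structural class, 9 of 10 desmosome genes were over 1.5-fold higher, with a median log2 ratio of 0.95. *Dsp*, the desmosomal plaque protein, had a mean of 139.6 in the control and 267 in the mutants, *Dsc3* and *Pkp1* had log2 ratios of 0.96 and 1.34, and the range ran from *Jup* at 0.39 to *Dsg3* at 1.52. Of 11 measured junction and protease genes, 9 were over 1.5-fold higher, with a median of 0.77. *Marveld3*, named for this limit alone, had 0.922 in the control and 1.29 in the mutants. It passed the minimum only through its mutant mean, so it had to be higher. It is in this median and in that of all structural genes, but not among the 9. After *Cdh1*, *Spint2* and *Epcam* were the most abundant, with log2 ratios of 0.75 and 0.78, and *Spint1* at 0.21 was the lowest. Both classes thus lay close to the regulators. Of 6 measured keratins, 4 were over 1.5-fold higher, with a median of 1.11. *Krt14* and *Krt17*, after *Krt5* at 1.22, had 1.01 and 1.23, and the range ran from *Krt8* at 0.09 to *Krt15* at 2.09. Of 10 basal adhesion genes, 6 were over 1.5-fold higher, with a median of 0.74. Their most abundant genes had small ratios, with *Dst* at 0.04, *Perp* at 0.33 and *Fras1* at 0.09. Of 7 enamel genes, 4 were over 1.5-fold higher, with a median of 2.11.

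**Figure D2:**
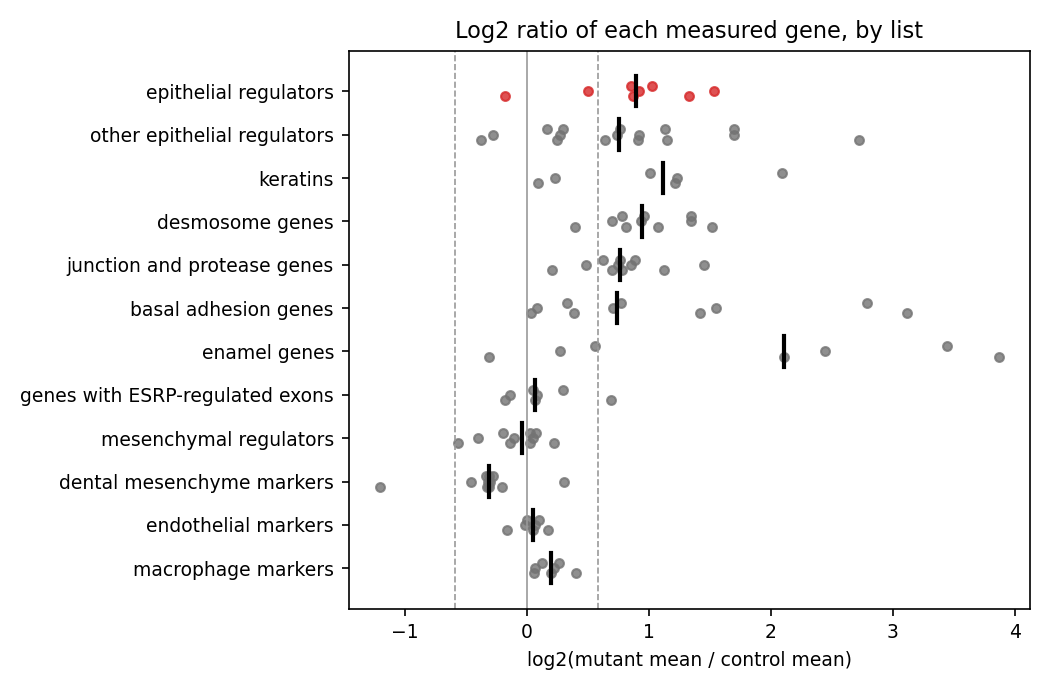
Log2 of the mutant mean over the control mean for each measured gene (points) by list, with the median of each list as a black bar, equal means as a solid line and 1.5-fold as dashed lines. The medians of the regulators (0.89), desmosome genes (0.95) and junction and protease genes (0.77) lie close together, and that of the enamel genes (2.11) lies to the right.

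Enamel genes, expressed by ameloblasts, had ratios both above and below those of the regulators. *Amelx*, the most abundant, had a mean of 362 in the control and 3946 in the mutants, *Ambn* had 617 and 3360, and *Enam* had 136 and 1983. Their summed signal was 1357 in the control and 9591 in the mutants, a ratio of 7.07, beside 1.83 for the 9 regulators and 2.17 for the keratins, which had sums of 326 and 706.5. *Klk4*, a protease of the maturation stage, was the lowest at a log2 ratio of -0.31. *Mmp20* at 0.27 and *Odam* at 0.56, both named after their values were seen, were also under the median of the regulators, so that the ratio of the sums was carried by *Amelx*, *Ambn* and *Enam*. The median of the enamel genes was 2.95 for averages of at least 10 and 1.81 with a pseudocount of 1, in place of 2.11. The junction and protease genes summed to 214 and 367. None of these lists had a gene at or under the level of 3 reads per library in both groups. The part of a larger share of epithelium in the mutant samples in the ratios of the regulators was not tested.

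Markers of other tissues did not share the ratios of the regulators. Of 11 dental mesenchyme markers, 1 had a higher mutant mean, *Col3a1* at a log2 ratio of 0.31, and the median log2 ratio was -0.31. Their summed signal was 37503 in the control and 30958 in the mutants, led by *Col1a1* at 21211 and 17127, and *Dspp* and *Col1a2* had log2 ratios of -0.32 and -0.30. *Gli1*, which marks the cells targeted by the Cre, was the lowest at -1.21 and the single marker over 1.5-fold lower. The mutants carry *Gli1-CreER* and the controls are described without it. For *Gli1*, an effect of *Gli1-CreER* itself and fewer targeted cells therefore cannot be told apart. None of 7 endothelial markers was past 1.5-fold, with a median of 0.05, summed signals of 367 and 372 and *Cdh5* the most abundant at 95.2 and 94.4. None of 7 macrophage markers was past 1.5-fold, with a median of 0.20, summed signals of 354 and 391.0 and *Lyz2* the most abundant at 126 and 132. The part of these tissues in the ratios of the regulators was not tested. Of 3 measured markers of oral surface epithelium, 10 being listed, none was past 1.5-fold, with a median of 0.12. Over the 6 that were found, also those under the minimum, summed signals were 8.56 and 9.61. *Krt10* was the most abundant at 3.50 and 3.82.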

How the data were processed

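RNA from 3 control and 3 *Arid1b* mutant samples of incisor was sequenced. Per the methods, trimming, alignment to mm10 and the comparison were done by the authors in Partek Flow. The submitters' processing notes name TopHat2 2.0.8. The deposited values used here are normalized signal, as the authors' mean per group and gene and as a summary per library, of which 3 numeric columns were not used. The authors' p-values, FDR, ratio and fold change of mutant against control, and their filtered gene table, were not used. The planned test needs a value per gene and library, which was not analysed here, so it was not run and no spread between libraries is given.

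Each value was taken to be reads plus 1 on a scale set per library. This is an inference from the minima of the libraries, whose average in a group is the lowest of that group's means. Under it, the control libraries 1, 2 and 3 held about 39868312, 39556420 and 39087724 reads, and the mutant libraries 1, 2 and 3 about 49594469, 42625066 and 37123643. The upper quartiles lay between 44.57 and 44.58 in all 6 libraries. The level of 3 reads per library, used as a floor, was 0.103 in the control and 0.0923 in the mutants.

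Log2 ratios were computed from the means without a pseudocount, and genes with an average of at least 1 were counted as measured. Summed signals are over all genes of a list that were found, also those under the minimum. The fold of 1.5 is that of the study. The members and the 17 other lists were chosen with earlier results of these data known. Named are *Arid1b*, the 9 regulators, the described genes of the other epithelial and the mesenchymal regulators, and from each other list the 3 most abundant genes and the measured genes with the largest and smallest log2 ratio. Some lists are given with fewer names, and some genes covered by this rule are not reported here. Coordinates and exonic lengths are from GENCODE vM21 on GRCm38, also named mm10. Alternatives were a pseudocount, other filters, scalings and folds, a mean over the regulators, and the regulators without gene families. The code that computes ratios and counts past the fold was checked on simulated group means, which says nothing about the regulators themselves. Python 3.11.15 was used with numpy 2.4.6, pandas 2.3.3 and matplotlib 3.10.9.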

Additional observations from a re-analysis of the deposited data

How the results depend on the processing

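The median log2 ratio of the regulators was between 0.80 and 0.95 under every alternative run, and that of the structural genes between 0.77 and 0.89. Leaving out the enamel genes, an alternative chosen after seeing the data, gave 0.82 for the structural genes. The count of regulators over 1.5-fold higher was 6 of 8. It was 2 with an average of at least 10, where 3 of the 9 regulators remain by construction, and 3 with a fold of 2. It was 5 with a pseudocount of 1, which lowers the ratios of low genes, 7 without a filter, where *Ovol1* is added, and 7 with the threshold at 25% higher. It was 4 without the grainyhead-like genes and 4 without the splicing regulators, since each family holds 2 of the 6. Over all genes, the 610 higher and 282 lower became 429 and 170 with a pseudocount of 1, 1421 and 1117 without a filter, 222 and 94 with an average of at least 10, 215 and 79 with a fold of 2, and 1341 and 1050 with the threshold at 25% higher and the inverse of that fold. With equal group totals they became 709 and 235, and with centring 607 and 285. Both scalings shift all genes by a constant smaller than the log2 ratio of any regulator, so they could not change a regulator's direction. Equal group totals, a shift of 0.06 on the log2 scale, changed the sign of the median of the mesenchymal regulators, and centring changed that of the perivascular markers.

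No paired analysis was possible because the values are means of each group, and leaving out each replicate in turn was not possible for the same reason. Depth limits *Grhl1*, *Grhl3*, *Ehf* and *Ovol1* most, since each corresponds to fewer than 100 reads per library in both groups.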

Other observations

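Values of 4 further marker lists were not described above. All 4 measured erythroid markers were over 1.5-fold lower in the mutants, against 1.91% of the measured genes, with a median log2 ratio of -1.50. *Hbb-bt*, at 4.49 in the control and 0.998 in the mutants, passed the minimum only through the control. Its direction was thus fixed by the filter, and this count is a description only. Over all 6 erythroid markers found, summed signals were 64.0 in the control and 22.3 in the mutants. *Hbb-bs*, a beta globin and the most abundant of them, had means of 29.0 and 9.97. Of 3 measured skeletal muscle markers, 1 was over 1.5-fold higher and 2 were over 1.5-fold lower, with a median of -0.62, or -0.03 without a filter. *Myh4*, at 0.552 and 2.06, and *Tnnt3*, at 1.41 and 0.919, passed the minimum only through the group where they were higher. The filter thus fixed the directions of both, and these counts are a description only. Over all 7 muscle markers found, summed signals were 7.08 and 6.59. Of 6 measured glial markers, 1 was over 1.5-fold higher and none over 1.5-fold lower, with a median of 0.08. The glial median was -0.09 without a filter and 0.34 for averages of at least 10. Over all 7 glial markers found, summed signals were 72.8 and 78.9. None of 6 perivascular markers was past 1.5-fold, with a median of 0.00 and summed signals of 684 and 630.3.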
